A study of Mus musculus with 28 samples.

Results

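The comparison described here set CD4 T cells that met antigen in a host mouse against CD4 T cells activated in a culture dish. It took 6 of the 28 arrays in the series, chosen by their sample titles: 3 arrays of the group titled CD4 continuous 5 days and 3 of the group titled CD4 stimulated 2 days, with 12393 genes measured on each. Both groups were CD4+ cells of C57BL/6N background that carried the AND transgenic T cell receptor, which recognises a peptide presented by MHC class II. The continuous cells spent 2 days on plates coated with 10 µg/ml of antibodies to CD3 (the signalling part of the receptor) and CD28 (its costimulator), and then 3 days in hosts that express the antigen. The stimulated cells were taken at the end of the same 2 days of culture and never entered a host. All cultures contained interleukin 7 at 5 ng/ml. The hosts are called dtg-O or -M in the labels, which do not say which cells present the antigen, nor whether animals were pooled for a preparation. Day, host, array day and the absence of the plate antibodies change together between these groups, so their effects cannot be told apart. Further groups served for comparison: CD4 transient 5 days (2 arrays, the same culture followed by 3 days in antigen-free hosts), and CD8 continuous 5 days and CD8 stimulated 2 days (3 arrays each), CD8+ cells with the OT1 receptor handled in the same way. The study describes its replicates as independent biological ones.

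A T cell that engages its receptor together with CD28 makes interleukin 2, takes up glucose and amino acids, builds ribosomes and divides, and it loses the genes that hold a resting cell in circulation, among them Klf2 and its target S1pr1. Antigen that persists in a living host keeps the receptor engaged at levels and sites that plate-bound antibodies do not copy, and there inhibitory receptors, helper cytokines, homing receptors and cytotoxic genes can be induced or held back. The arrays report RNA, so these roles are background and no protein was measured.

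The labelled cell type held against its defining markers. Cd4 had log2 signals of 9.48, 9.63 and 9.86 in continuous cells and 9.29, 9.18 and 9.21 in stimulated cells, whereas Cd8a lay at 5.53, 5.92 and 5.34 in continuous cells and 6.49, 5.15 and 6.05 in stimulated cells, against 10.52 to 12.76 on the 6 CD8 arrays. The 6 arrays had similar medians, between 6.38 and 6.43 on the log2 scale. A measure of RNA length, the 3 prime minus 5 prime log2 difference of the beta-actin control probes, moved with the comparison. It was 0.401 to 0.618 on the continuous arrays, 2.42 to 2.73 on the transient arrays and 1.11 to 1.39 on the stimulated arrays. For the Gapdh control probes it was 1.44 to 1.66 on the continuous arrays and 1.46 to 1.82 on the stimulated arrays. By Gapdh the continuous and stimulated arrays thus overlapped, while the transient arrays stood at 3.47 to 3.60. Only the beta-actin difference was used as a covariate, and its part in the results was not tested beyond the fits named below. Continuous replicate 1 stood apart by genes of myeloid and antigen-presenting cells: Lyz1, a lysozyme of macrophages, measured 12.13, 5.14 and 7.55 on the continuous arrays in order of replicate, and C1qc, a complement gene of macrophages, 9.52, 5.21 and 5.42. Of the 20 measured myeloid markers 4 were called higher (S100a8, S100a9, Cd68 and Ctss) and 1 lower (Cebpb) at an adjusted p below 0.05 in limma, against 16.6% and 23.7% of all genes, and their summed linear signal was 9050 to 20000 on the continuous arrays and 5490 to 6990 on the stimulated arrays. Of the 17 measured B cell markers 3 were called higher (Ighm, Cd22 and Ms4a1) and 1 lower (Fcer2a), and their summed signal was 2950 to 4750 on the continuous arrays and 1330 to 2640 on the stimulated arrays. The call of Cd68 was lost without any 1 of 5 arrays (adjusted p 0.0528 to 0.0744), and that of Ms4a1 without stimulated replicate 1 or 2 or continuous replicate 1 or 3 (0.0686 to 0.0973). Cd79a, which defines the B cell lineage, lay at 5.03, 4.96 and 4.80 on the continuous arrays and 5.25, 5.11 and 5.18 on the stimulated arrays. Fewer cells of a type and less RNA per cell cannot be told apart in such preparations.

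Continuous cells differed from stimulated cells in 5006 of the 12393 genes (40.4%) by that rule, which was used for every call below. Of these, 2063 were higher (16.6% of all genes) and 2943 lower (23.7%) in the continuous cells. These shares are the background for the list counts below. A change of at least 2-fold was called for 1003 genes upward (8.09%) and 1047 downward (8.45%), and one of at least 8-fold for 75 genes upward (0.605%) and 47 downward (0.379%). The median difference over all genes was -0.107 on the log2 scale, and the median standard error of a gene was 0.131. Groups did not overlap in 6886 genes (55.6%). When the beta-actin difference was entered as a covariate in a fit of all 28 arrays, 364 genes were higher and 2982 lower, so that the share of higher calls was 10.9% in place of 41.2% and the median of all genes stood at -0.487.

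**Figure D1:**
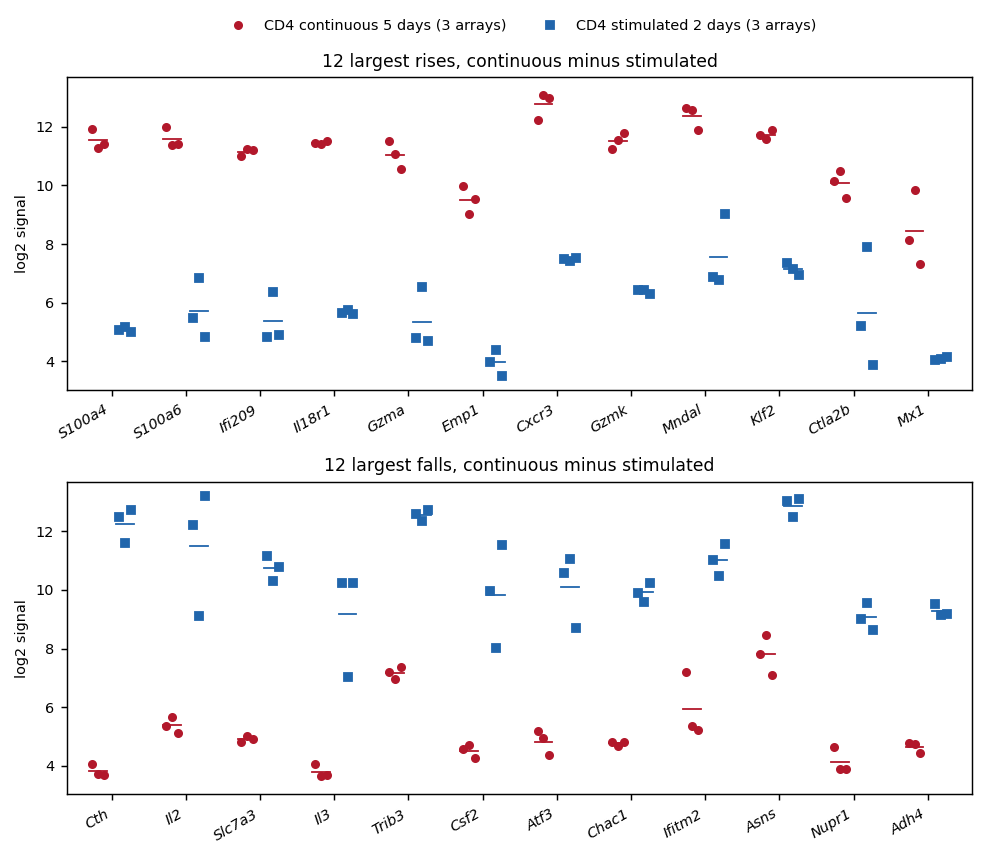
Log2 signal (vertical axes) on each of the 6 arrays for the 12 largest rises and the 12 largest falls among the called genes with no overlap between groups. Circles are the 3 arrays of CD4 continuous 5 days, squares the 3 arrays of CD4 stimulated 2 days, and horizontal lines the group means. S100a4 lay above 11 on all continuous arrays and near 5 on all stimulated arrays, and Cth showed the widest gap of the falls, with continuous arrays near 4 and stimulated arrays near 12.

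The largest rises included S100 proteins, granzymes, interferon-inducible genes and homing genes. S100a4, a calcium-binding protein of motile and memory T cells, had log2 signals of 11.92, 11.29 and 11.40 in continuous cells and 5.06, 5.16 and 4.99 in stimulated cells. The difference of 6.47 ± 0.17 (SE) corresponds to 88.7-fold (adjusted p = 1.07e-05). Il18r1, which encodes the ligand-binding chain of the interleukin 18 receptor, gave the smallest spread of the leading rises, at 11.43, 11.42 and 11.50 in continuous cells and 5.64, 5.74 and 5.63 in stimulated cells (5.78 ± 0.09 SE, adjusted p = 7.34e-07). Cxcr3, the receptor for interferon-induced chemokines at inflamed sites, measured 12.24, 13.07 and 12.98 in continuous cells and 7.48, 7.43 and 7.52 in stimulated cells, a 39-fold difference (adjusted p = 2.49e-05). For these 3 genes every continuous array lay far above every stimulated array, and the gap was many times the spread within either group. The 12 largest rises and 12 largest falls were taken only from called genes without overlap, so the separation of their arrays is no further support. Ifi209 and Mndal, interferon-inducible genes of the same cluster, rose by 5.79 ± 0.39 (SE) and 4.81 ± 0.59 (SE). Emp1, a membrane protein, and Ctla2b, a protease inhibitor first described in activated T cells, rose by 5.56 ± 0.30 (SE) and 4.41 ± 0.92 (SE). Ctla2b read 10.14, 10.49 and 9.57 in continuous cells and 5.19, 7.90 and 3.88 in stimulated cells.

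The largest falls included amino acid metabolism, stress factors and cytokines. Cth, cystathionine gamma-lyase of cysteine synthesis, had log2 signals of 4.08, 3.73 and 3.68 in continuous cells and 12.47, 11.61 and 12.71 in stimulated cells. It was 345-fold lower in continuous cells (-8.43 ± 0.28 SE, adjusted p = 1.19e-05), the largest called difference of the 12393 genes. Il2, the growth factor that activated CD4 cells secrete, measured 5.37, 5.68 and 5.13 in continuous cells and 12.22, 9.11 and 13.20 in stimulated cells. The continuous arrays lay close together, the stimulated arrays were widely spread, and the groups did not overlap (-6.12 ± 0.94 SE, adjusted p = 0.00224). Il3 and Csf2, cytokines that act on myeloid cells, showed the same spread among stimulated arrays, with Csf2 at 4.58, 4.72 and 4.25 in continuous cells and 9.95, 8.00 and 11.53 in stimulated cells. Stimulated replicate 2 was the lowest of its group for Il2, Il3 and Csf2. Atf3 and Nupr1, transcription regulators induced by cell stress, had differences of -5.29 ± 0.58 (SE) and -4.93 ± 0.29 (SE). Ifitm2, an interferon-inducible membrane protein, also fell, at 7.20, 5.35 and 5.22 in continuous cells and 11.03, 10.47 and 11.55 in stimulated cells (-5.09 ± 0.55 SE). Adh4, an alcohol dehydrogenase, had a difference of -4.64 ± 0.15 (SE).

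Amino acid supply and one-carbon metabolism gave the most one-sided list. Of 35 measured genes, 34 fell, none rose, and 1 (Cbs) was not called; the median of the list was -1.99, against -0.107 over all genes. Asns, asparagine synthetase, measured 7.82, 8.48 and 7.11 in continuous cells and 13.03, 12.50 and 13.09 in stimulated cells (-5.07 ± 0.34 SE, adjusted p = 0.000111). Trib3, a pseudokinase induced by the stress-responsive factor ATF4, measured 7.20, 6.95 and 7.37 in continuous cells and 12.59, 12.35 and 12.71 in stimulated cells. Chac1, a glutathione-degrading enzyme also induced by ATF4, measured 4.83, 4.67 and 4.82 in continuous cells and 9.90, 9.59 and 10.24 in stimulated cells. All continuous arrays lay below all stimulated arrays for the 3 genes. The transporter of cationic amino acids Slc7a3 was 56.5-fold lower in continuous cells. Atf4 itself fell by 2.04 and its partner Ddit3 by 3.27, each with groups that did not overlap. With the beta-actin covariate 32 of the 35 were called lower.

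ATF4 is known to bind composite elements in the promoters of several of these genes, and interferon-induced genes described further on carry elements bound by STAT and IRF factors. Promoter windows from RefSeq (GRCm38.p6, 250 bases before to 50 after each gene start, 1 window per gene) are shown for 2 of the leading genes of each list. They let the motif searched, in capitals, be seen in place. On either strand the letters TGATGNAA occurred in 8 of the 28 amino acid genes with a window (28.6%) and in 1096 of all 27025 windows (4.06%). The letters GAAA, followed after any 2 bases by GAAA again, occurred in 14 of 26 interferon-induced genes with a window (53.8%) and in 943 of all windows (3.49%). Interferon-induced genes with this match changed in both directions, from Bst2 (-2.57) to Rsad2 (4.32), and Irf7 (2.45) rose without a match. Neither motif contains the other, and a match describes these letters only, with no binding measured. The match of Asns (chr6:7693160-7693459, minus strand) began 23 bases before the gene start, and that of Chac1 (chr2:119350992-119351291, plus strand) 193 bases before it. Rsad2 (chr12:26456403-26456702, minus strand) held 1 match, 120 bases before the start, and Ifit1 (chr19:34640639-34640938, plus strand) held 2, at 104 and 85 bases before it. In Chac1, Rsad2 and Ifit1 the motif reads on the opposite strand, so the capitals show its reverse complement.
Asns: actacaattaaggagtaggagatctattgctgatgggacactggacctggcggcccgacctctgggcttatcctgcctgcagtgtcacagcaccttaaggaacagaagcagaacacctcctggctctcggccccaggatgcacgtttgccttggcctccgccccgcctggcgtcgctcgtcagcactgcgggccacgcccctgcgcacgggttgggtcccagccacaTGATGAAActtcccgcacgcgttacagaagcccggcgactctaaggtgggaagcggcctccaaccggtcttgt
Chac1: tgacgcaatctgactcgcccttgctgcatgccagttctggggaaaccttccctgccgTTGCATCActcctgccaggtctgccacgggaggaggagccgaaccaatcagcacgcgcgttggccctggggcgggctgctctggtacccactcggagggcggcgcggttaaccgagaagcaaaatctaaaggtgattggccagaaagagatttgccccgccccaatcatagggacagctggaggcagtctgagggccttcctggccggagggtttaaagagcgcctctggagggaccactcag
Rsad2: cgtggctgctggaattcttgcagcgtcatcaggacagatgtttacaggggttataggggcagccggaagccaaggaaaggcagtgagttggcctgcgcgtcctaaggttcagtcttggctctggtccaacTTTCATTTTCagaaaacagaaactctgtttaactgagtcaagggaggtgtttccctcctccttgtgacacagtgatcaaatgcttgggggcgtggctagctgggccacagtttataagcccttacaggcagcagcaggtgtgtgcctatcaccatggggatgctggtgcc
Ifit1: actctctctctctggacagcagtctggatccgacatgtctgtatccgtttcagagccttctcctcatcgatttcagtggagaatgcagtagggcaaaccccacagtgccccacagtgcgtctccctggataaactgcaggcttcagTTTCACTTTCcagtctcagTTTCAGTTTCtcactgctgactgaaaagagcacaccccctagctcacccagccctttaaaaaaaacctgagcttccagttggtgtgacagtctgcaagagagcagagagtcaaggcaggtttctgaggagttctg
The 8 amino acid genes with the motif (Aars, Asns, Chac1, Gars, Got1, Slc1a4, Slc7a11 and Trib3) were among the 34 genes that fell. Amino acid genes with a window but no match fell too, except Cbs, among them Gpt2 (-4.15) and Sesn2 (-3.62). The fall therefore does not separate genes with the motif from those without it.

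Reporters of receptor signalling were mostly lower in the continuous cells. Of 20 measured, 11 fell and 1 rose, and the median was -1.40. Tnfrsf4, the costimulatory receptor OX40, measured 9.84, 10.68 and 9.41 in continuous cells and 14.03, 13.79 and 14.12 in stimulated cells (-4.00 ± 0.31 SE, adjusted p = 0.000165). Irf4, a factor whose level follows receptor strength, read 11.09, 11.73 and 9.67 in continuous cells and 13.10, 13.00 and 12.70 in stimulated cells (-2.10 ± 0.48 SE). Myc, the driver of growth metabolism, read 9.09, 9.23 and 7.01 in continuous cells and 10.87, 10.84 and 11.35 in stimulated cells (-2.58 ± 0.56 SE). In both genes continuous replicate 3 was the lowest of the 6 arrays, and the groups did not overlap. Cish, induced by interleukin 2 and by the receptor, fell by 3.32. Nr4a1, an immediate reporter of receptor engagement, read 9.76, 9.93 and 8.23 in continuous cells and 11.40, 10.71 and 11.67 in stimulated cells (-1.95 ± 0.47 SE, adjusted p = 0.0147), a call lost without stimulated replicate 1 (adjusted p = 0.0518). Egr2, a receptor-induced factor also linked to anergy, was not called, at 11.55, 11.34 and 10.41 in continuous cells and 11.22, 11.31 and 11.67 in stimulated cells (adjusted p = 0.459).

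Secreted factors split by gene. Of 19 measured cytokines, 2 rose (Ifng and Il10) and 7 fell (Il2, Il3, Csf2, Lta, Tnfsf11, Il6 and Tgfb1), with a median of -0.856. Il10, an anti-inflammatory cytokine, measured 7.70, 6.49 and 5.97 in continuous cells and 3.82, 4.37 and 3.69 in stimulated cells (2.76 ± 0.43 SE, adjusted p = 0.00224). Ifng, the Th1 effector cytokine, measured 12.48, 11.69 and 10.51 in continuous cells and 9.00, 10.29 and 6.27 in stimulated cells (3.04 ± 1.00 SE, adjusted p = 0.0468). Its call was lost when any 1 of 5 arrays was left out, with adjusted p values from 0.0507 to 0.134, and also with robust moderation. Il21, a helper cytokine for B cells, read 10.66, 10.93 and 9.94 in continuous cells and 7.21, 9.94 and 3.45 in stimulated cells. The stimulated arrays were so far apart that the difference of 3.65 ± 1.44 (SE) was not called (adjusted p = 0.0839), and without stimulated replicate 2 it was (5.18, adjusted p = 0.0097). Il4 and Tnf were not called either, with Tnf at 8.10, 7.93 and 7.09 in continuous cells and 8.74, 7.83 and 9.55 in stimulated cells. Without stimulated replicate 2 Tnf was called lower (-1.442, adjusted p = 0.0241). Of 9 chemokines only Ccl5 rose and only Ccl1 fell. Ccl5, which attracts T cells and monocytes, measured 12.41, 11.57 and 12.45 in continuous cells and 7.96, 7.99 and 7.65 in stimulated cells (19.4-fold, adjusted p = 6.78e-05), and Ccl4 overlapped between the groups. Without stimulated replicate 2 Ccl4 was called lower (-2.256, adjusted p = 0.0279).

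Among 24 cytokine receptors 9 rose and 6 fell, with a median of 0.309. The share of falls was near the 23.7% of all genes. Both chains of the interleukin 18 receptor were higher, Il18rap at 8.78, 8.58 and 8.46 in continuous cells and 5.74, 5.61 and 5.73 in stimulated cells (2.91 ± 0.11 SE). Il2ra, the inducible high-affinity chain of the interleukin 2 receptor, was lower at 7.26, 7.41 and 6.09 in continuous cells, against 10.24, 11.15 and 9.01 in stimulated cells (-3.21 ± 0.57 SE, adjusted p = 0.00418). Il12rb1, a chain of the interleukin 12 receptor, fell by 2.99. Il6ra and Il6st, the 2 chains for interleukin 6, rose by 1.67 ± 0.23 (SE) and 2.42 ± 0.27 (SE). Il7r, the receptor for the cytokine given to every culture, was too variable to be called, at 9.18, 9.65 and 6.01 in continuous cells and 6.98, 8.79 and 4.98 in stimulated cells.

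Of 15 inhibitory receptors measured, 3 rose and 4 fell, close to the 16.6% and 23.7% of all genes, and the median was 0.171. Havcr2 (TIM-3) measured 7.51, 7.79 and 6.14 in continuous cells and 3.76, 4.11 and 3.99 in stimulated cells (3.19 ± 0.40 SE, adjusted p = 0.000985). Cd160 and Entpd1, the ectoenzyme CD39, rose by 2.20 ± 0.25 (SE) and 2.30 ± 0.36 (SE). Pdcd1lg2, a ligand of PD-1, and Cd200 went the other way, Cd200 at 10.29, 9.71 and 9.34 in continuous cells and 11.79, 11.50 and 12.31 in stimulated cells (-2.09 ± 0.29 SE). Pdcd1, which encodes PD-1, was not called, at 8.72, 9.29 and 9.62 in continuous cells and 9.59, 8.67 and 10.66 in stimulated cells (adjusted p = 0.512). Lag3 and Ctla4 were not called, with adjusted p values of 0.66 and 0.121. Ctla4 was high in both groups, at 12.54, 12.06 and 11.49 in continuous cells and 11.15, 11.86 and 10.93 in stimulated cells, and it was called higher without stimulated replicate 2 (0.989, adjusted p = 0.0436). The calls of Cd160 and Entpd1 were lost with the beta-actin covariate (1.46 and 1.66).

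Transcription factors tied to exhaustion and memory were divided: 5 of 15 rose and 2 fell, with a median of 0.343. Prdm1, which encodes the effector factor BLIMP-1, measured 8.20, 7.90 and 7.48 in continuous cells and 5.69, 6.72 and 4.88 in stimulated cells (2.10 ± 0.44 SE, adjusted p = 0.00837). Lef1, a factor of naive and memory cells, rose by 1.35 ± 0.16 (SE), and Tox, an exhaustion factor, by 0.68 ± 0.13 (SE); both calls were lost with the beta-actin covariate (0.018 and 0.147). Tbx21, the Th1 factor T-bet, was high in both groups and not called, at 11.80, 11.53 and 11.41 in continuous cells and 11.52, 11.38 and 10.81 in stimulated cells. Foxp3, the factor of regulatory T cells, was low in both, at 4.74, 5.29 and 4.70 in continuous cells and 4.86, 4.85 and 4.58 in stimulated cells. Eomes and Gata3 were not called, although Gata3 was without stimulated replicate 2 (1.026, adjusted p = 0.0373). Another probe set of Eomes, used below against CD8 cells, did not overlap between the groups. It read 6.017, 6.968 and 5.945 in continuous cells and 4.926, 4.915 and 4.855 in stimulated cells.

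Follicular helper genes were called only upward. Of 16 measured, 8 rose and none fell (8 were not called), with a median of 1.01. Bcl6, the lineage factor of these B cell helpers, measured 7.96, 8.75 and 8.65 in continuous cells and 6.69, 5.65 and 6.75 in stimulated cells (2.09 ± 0.34 SE, adjusted p = 0.00281). Cxcr5, the receptor that leads cells to B cell follicles, read 6.13, 9.20 and 7.88 in continuous cells and 4.97, 4.71 and 5.45 in stimulated cells. Its difference of 2.69 ± 0.70 (SE) was called (adjusted p = 0.0199) but lost without stimulated replicate 1, stimulated replicate 2 or continuous replicate 3 (adjusted p 0.0615, 0.055 and 0.0562). Icos, a costimulator of helper cells, and Slamf6, an adhesion receptor of T and B cells, rose by 1.73 ± 0.24 (SE) and 2.14 ± 0.31 (SE). Of the 17 B cell markers 13 were not called, with a median of 0.0137, and their part in this list was not tested. Of the 16 helper genes, 5 were higher in continuous than in transient cells (Il21, Icos, Sh2d1a, Slamf6 and Maf), and Il6ra was lower. The other 10, Bcl6 and Cxcr5 among them, were not called, and the transient arrays carried B cell genes, as described below. The CD8 minus CD4 difference was lower for Icos and Maf and not called for 14.

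Brakes linked to anergy divided, with 6 of 15 higher, 4 lower and a median of -0.0401. Their share of falls was near the 23.7% of all genes. Dgka, a diacylglycerol kinase that dampens receptor signals, measured 12.19, 12.42 and 12.32 in continuous cells and 9.35, 9.59 and 8.82 in stimulated cells (3.06 ± 0.20 SE, 8.33-fold, adjusted p = 9.8e-05). Ptpn22, a phosphatase, and Pag1, an adaptor, both of which restrain SRC kinases, rose by 1.65 ± 0.26 (SE) and 1.47 ± 0.13 (SE). Ndrg1, linked to anergy, and Socs2, an inhibitor of cytokine signals, fell by 2.34 and 1.71. The 4 falls became 2 without stimulated replicate 1 or continuous replicate 3. Among 15 costimulatory genes 5 rose and 4 fell, the falls again near the share of all genes, with a median of -0.471. Cd27, a receptor of resting and memory cells, measured 10.21, 11.00 and 11.13 in continuous cells and 8.30, 8.61 and 7.47 in stimulated cells (2.65 ± 0.35 SE). Tnfrsf18, the receptor GITR, fell by 1.78. The 5 rises became 3 without stimulated replicate 1, stimulated replicate 3, continuous replicate 1 or continuous replicate 2.

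The receptor complex and its kinases were higher in continuous cells: 12 of 18 rose and 1 fell, with a median of 0.577. The summed signal of 8 pan T cell markers, some of them on this list, was 30800 to 38700 on the continuous arrays and 15600 to 22400 on the stimulated arrays. Fyn, a SRC kinase, measured 11.44, 11.63 and 11.86 in continuous cells and 9.80, 9.45 and 9.88 in stimulated cells (1.94 ± 0.16 SE, adjusted p = 0.00021). The signalling chains Cd247 and Cd3g rose by 1.50 ± 0.15 (SE) and 1.43 ± 0.14 (SE), while Cd3d was not called with all 6 arrays but was without continuous replicate 1 (0.462, adjusted p = 0.0235). Under the beta-actin covariate 2 rose and none fell (16 were not called).

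Genes of quiescence and lymph node homing were divided. Of 17 measured, 7 rose and 2 fell, with a median of 0.436. Klf2, the factor that keeps T cells resting and drives exit from lymphoid tissue, measured 11.72, 11.59 and 11.88 in continuous cells and 7.36, 7.16 and 6.93 in stimulated cells (4.58 ± 0.14 SE, 23.9-fold, adjusted p = 1.11e-05). S1pr1, its target and the receptor for exit into lymph, measured 9.73, 9.54 and 9.62 in continuous cells and 6.25, 6.45 and 5.66 in stimulated cells (3.51 ± 0.20 SE). Ccr7, the receptor that brings cells into lymph nodes, was lower in continuous cells, at 8.86, 8.65 and 8.67, against 11.36, 10.81 and 10.45 in stimulated cells (-2.15 ± 0.22 SE, adjusted p = 0.000446). The groups did not overlap for any of the 3 genes.

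Receptors for tissues and adhesion changed in both directions, with 9 of 20 higher, 4 lower and a median of 0.537. Itga4, the alpha 4 integrin chain, measured 9.37, 9.09 and 9.09 in continuous cells and 5.06, 4.94 and 5.18 in stimulated cells (4.12 ± 0.12 SE, adjusted p = 1.07e-05). Its partners Itgb7 and Itgb1 rose by 2.51 ± 0.22 (SE) and 1.60 ± 0.23 (SE). Cxcr6, a receptor of tissue-resident and effector cells, measured 8.56, 8.76 and 7.67 in continuous cells and 5.25, 4.72 and 4.77 in stimulated cells (3.42 ± 0.30 SE). Cxcr4 rose by 3.04 ± 0.34 (SE), and Cd44, the hyaluronan receptor of activated cells, was not called, at 10.97, 10.53 and 10.13 in continuous cells and 10.26, 10.04 and 10.90 in stimulated cells.

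Cytotoxic granule genes were mostly higher. Of 17 measured, 10 rose and 1 fell, with a median of 1.55. Gzmk, a granzyme of effector memory cells, measured 11.24, 11.54 and 11.78 in continuous cells and 6.43, 6.45 and 6.29 in stimulated cells (35-fold, adjusted p = 1.07e-05). Gzma, a granzyme stored in killer granules, measured 11.50, 11.07 and 10.57 in continuous cells and 4.78, 6.55 and 4.71 in stimulated cells (52.1-fold, adjusted p = 0.000258). Both genes had no overlap between groups. Gzmb, which starts apoptosis in target cells, measured 13.26, 12.71 and 12.31 in continuous cells and 10.08, 11.38 and 6.72 in stimulated cells, already high on 2 of the 3 stimulated arrays. Its call (adjusted p = 0.0427) was lost without stimulated replicate 1 or any 1 continuous array, with adjusted p values from 0.0741 to 0.115. Prf1, the pore-forming perforin, rose by 1.55 ± 0.20 (SE), Ctsw, a cathepsin of cytotoxic cells, by 4.34 ± 0.39 (SE), and Nkg7, a granule membrane protein, by 2.20 ± 0.23 (SE). The calls of Prf1 and Nkg7 were lost with the beta-actin covariate (0.753 and 0.549). Ncr1, which defines natural killer cells, stayed at 4.61, 4.48 and 4.56 in continuous cells and 4.57, 4.39 and 4.42 in stimulated cells. The summed signal of 7 NK cell markers was 9640 to 12800 on the continuous arrays and 1530 to 2520 on the stimulated arrays, with Gzma and Nkg7 the called members. That of 6 CD8 cell markers was 11800 to 15500 on the continuous arrays and 1780 to 2790 on the stimulated arrays, with Ccl5, Klrd1 and Nkg7 the called members. Cd8b1, which defines CD8 cells, lay at 5.55, 5.76 and 5.49 in continuous cells and 5.85, 6.02 and 6.79 in stimulated cells.

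S100, annexin and galectin genes, which mark motile and memory T cells, were higher nearly throughout: 16 of 18 rose, none fell, and 2 (Capg and Anxa4) were not called, with a median of 2.83. Emp1, Ahnak, Vim and Crip1 are on the same list although they belong to none of these families. S100a6 measured 12.00, 11.37 and 11.40 in continuous cells and 5.49, 6.84 and 4.83 in stimulated cells (5.87 ± 0.48 SE). Ahnak, a scaffold protein, and Lgals3, galectin 3, rose by 4.31 ± 0.25 (SE) and 4.02 ± 0.40 (SE). S100a8 and S100a9, which belong to neutrophils and monocytes, followed the myeloid markers, with S100a8 at 9.69, 5.66 and 7.30 on the continuous arrays and 4.36, 4.81 and 5.00 on the stimulated arrays. Their calls were lost without any 1 stimulated array or without continuous replicate 3. Without continuous replicate 1, 16 genes rose and 1 fell, and the median was 2.46.

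Interferon-induced genes mostly went upward: 19 of 36 rose, 2 fell, and the median was 1.19. Rsad2, the antiviral protein viperin, measured 10.89, 11.54 and 8.87 in continuous cells and 6.11, 6.42 and 5.80 in stimulated cells (4.32 ± 0.63 SE, adjusted p = 0.00174). Mx1, an antiviral GTPase, measured 8.14, 9.85 and 7.31 in continuous cells and 4.03, 4.09 and 4.16 in stimulated cells (4.34 ± 0.57 SE). Ifit1, which binds viral RNA, measured 7.99, 9.31 and 6.94 in continuous cells and 4.80, 4.81 and 4.24 in stimulated cells (3.47 ± 0.54 SE). In all 3 genes continuous replicate 2 was the highest and continuous replicate 3 the lowest of its group, and no stimulated array reached them. Bst2 (tetherin) fell by 2.57. Of the genes for antigen presentation on MHC class I, 7 of 15 rose and 2 fell, with a median of 0.510. Tapbp, tapasin of the peptide-loading complex, and H2-K1, a class I heavy chain, rose by 1.89 ± 0.22 (SE) and 1.37 ± 0.20 (SE), whereas Tap2, a peptide transporter chain, fell by 2.09. Under the beta-actin covariate none of the 15 rose and 3 fell, and of the 36 interferon-induced genes 12 rose and 6 fell.

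Of 57 cell cycle genes 25 rose and 7 fell, with a median of 0.561. Mki67, the proliferation antigen, measured 11.91, 11.68 and 12.49 in continuous cells and 8.07, 9.91 and 9.94 in stimulated cells (2.72 ± 0.51 SE, adjusted p = 0.0052). The kinetochore genes Cenpe and Cenpf rose by 3.65 ± 0.43 (SE) and 2.85 ± 0.50 (SE). Cdkn1a, the cell cycle inhibitor p21, was lower, at 10.46, 9.88 and 9.05 in continuous cells and 12.40, 12.49 and 12.59 in stimulated cells (-2.70 ± 0.32 SE, adjusted p = 0.000802). The other called falls were Cdc25a, Cdc6, Cdk4, Uhrf1, Cdt1 and Mcm2, which are not inhibitors. The inhibitors Cdkn1b and Cdkn2c were among the rises. Without continuous replicate 1 the counts were 15 higher and 4 lower, the falls were also 4 without stimulated replicate 1, stimulated replicate 2 or continuous replicate 2, and with the beta-actin covariate 5 higher and 8 lower with a median of -0.207. Of 5 histone genes 3 rose and 1 fell, with a median of 0.949, and none was called with that covariate.

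Ribosome assembly fell as a list. Of 36 measured factors, 27 fell and 1 (Nop58) rose, with a median of -0.963. Nop56, a core protein of the particles that modify ribosomal RNA, measured 10.14, 10.24 and 9.78 in continuous cells and 12.00, 11.78 and 12.05 in stimulated cells (-1.90 ± 0.15 SE, adjusted p = 0.00018). Mybbp1a and Noc4l, nucleolar proteins, and Polr1b, a subunit of RNA polymerase I, fell by 2.12, 2.02 and 1.87. The ribosomal proteins themselves moved less, with 9 of 33 lower, none higher and a median of -0.0918, near that of all genes. Their share of falls was also near the 23.7% of all genes. Rps15 measured 11.30, 12.28 and 11.78 in continuous cells and 13.23, 13.08 and 13.27 in stimulated cells (-1.41 ± 0.23 SE).

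Glucose metabolism was lower in part. Of 21 genes 11 fell and 2 rose, with a median of -0.558. Hk2, the inducible hexokinase, measured 8.72, 9.30 and 8.37 in continuous cells and 10.64, 10.46 and 10.42 in stimulated cells (-1.71 ± 0.23 SE, adjusted p = 0.00121). Pfkl and Eno3, glycolytic enzymes, and Slc16a1, a lactate transporter, fell by 2.30, 2.25 and 1.92. The unfolded protein response was divided, with 10 of 22 higher, 4 lower and a median of 0.535. The chaperone Hsp90b1 measured 11.93, 11.69 and 11.91 in continuous cells and 8.90, 9.82 and 8.97 in stimulated cells (2.61 ± 0.25 SE), and Creld2 rose by 1.38 ± 0.15 (SE), whereas Atf4, Ddit3 and Herpud1 fell. With the beta-actin covariate 1 of the 22 rose and 5 fell.

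In the other metabolic lists between 46.9% and 50% of members were called, against 40.4% of all genes. Of 50 respiratory chain genes 15 rose and 10 fell, from Cox7c (1.57 ± 0.17 SE) to Ndufs8 (-1.12 ± 0.16 SE), with a median of 0.0837. Of 32 proteasome genes 4 rose and 11 fell, with a median of -0.127 near that of all genes, and Psmd13, a lid subunit, had the largest difference, at 7.42, 7.67 and 8.08 in continuous cells and 10.50, 10.39 and 10.44 in stimulated cells (-2.72 ± 0.17 SE). Of 24 sterol and fatty acid genes 6 rose, among them Elovl6 and Dhcr7, and 6 fell, among them Sqle (median -0.201). The 6 falls of that list became 3 without stimulated replicate 1, stimulated replicate 3 or continuous replicate 3. Under the covariate no gene of the proteasome or sterol lists rose.

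Survival and death genes of the BCL2 family changed in opposite directions: 7 of 22 rose and 8 fell, with a median of -0.229. Bcl2l11, which encodes the death-promoting protein BIM, measured 12.36, 11.92 and 11.67 in continuous cells and 9.73, 9.70 and 8.92 in stimulated cells (2.53 ± 0.27 SE, 5.78-fold, adjusted p = 0.000477). Bcl2l1, which encodes the survival protein BCL-XL, measured 8.01, 8.22 and 8.02 in continuous cells and 10.26, 9.72 and 11.10 in stimulated cells (-2.28 ± 0.32 SE, adjusted p = 0.00153). Pmaip1 (NOXA) rose by 2.12 ± 0.41 (SE), and Bbc3 (PUMA) and Cflar, an inhibitor of death receptors, fell by 2.02 and 1.98. Bcl2 was not called, at 7.40, 7.05 and 6.51 in continuous cells and 7.74, 8.28 and 7.12 in stimulated cells, but was without stimulated replicate 3 (-1.022, adjusted p = 0.0404). Among 32 early response and stress genes 9 rose and 7 fell, with a median of 0.146. The share of falls was near the 23.7% of all genes. Nfkbiz, a regulator of NF-kB target genes, rose by 2.50 ± 0.23 (SE), while Hspa1b, a heat shock protein, read 13.01, 12.09 and 8.69 in continuous cells and 7.74, 7.48 and 7.54 in stimulated cells and lost its call without any 1 of 5 arrays. The 7 falls became 4 without stimulated replicate 1.

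The covariate for beta-actin changed more lists than those named above. The counts higher and lower became 0 and 14 for receptor signal reporters, 1 and 4 for inhibitory receptors, 1 and 2 for exhaustion and memory factors, 3 and 3 for anergy-linked brakes and 6 and 0 for follicular helper genes. They became 5 and 5 for cytokine receptors, 2 and 5 for costimulatory genes, 4 and 3 for quiescence genes, 6 and 4 for tissue homing genes and 6 and 2 for cytotoxic genes. They became 0 and 32 for ribosome biogenesis, 0 and 14 for glycolysis, 2 and 14 for the respiratory chain, 0 and 19 for the proteasome, 3 and 7 for BCL2 family genes and 1 and 5 for early response genes. These counts stand against a median of all genes of -0.487 in that fit, and the S100, annexin and galectin list had 13 rises and 1 fall. Small counts also moved with single arrays. The rises of signal reporters, cytokines and chemokines, and the falls of exhaustion and memory factors, chemokines, cytotoxic, S100, interferon, MHC class I, receptor complex and histone genes, each 2 or fewer, lay between 0 and 4 with 1 array left out, and each of the 6 arrays moved at least 1 of them.

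**Figure D2:**
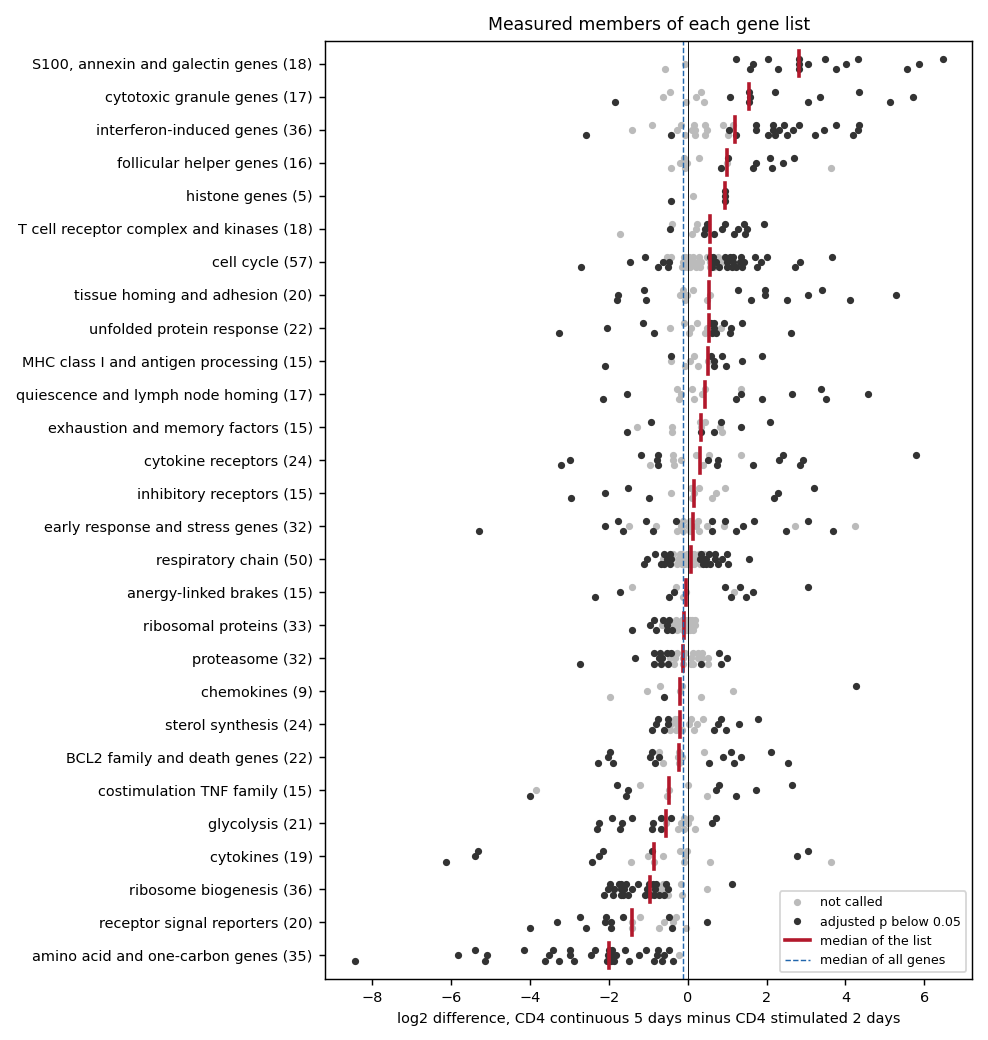
Log2 difference of continuous minus stimulated CD4 cells (horizontal axis) for every measured member of the 28 functional gene lists, sorted by list median, with the number measured in brackets. Dark points were called at an adjusted p below 0.05 and grey points were not; short lines are list medians, and the dashed line is the median of all genes (-0.107). The S100, annexin and galectin list lies at the top (2.83) and the amino acid and one-carbon list at the bottom (-1.99).

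The transient cells shared culture and day with the continuous cells but met no antigen in the host. In a fit of the 8 arrays of continuous, transient and stimulated CD4 cells, 3940 genes (31.8%) differed between continuous and transient cells, 2097 (16.9%) higher and 1843 (14.9%) lower in continuous cells. That comparison uses the same continuous arrays as the one above, so its values are set side by side only. Cxcr3 measured 12.71 and 12.99 in transient cells, with a continuous minus transient difference that was not called (-0.09 ± 0.24 SE, adjusted p = 0.819). Dgka measured 12.24 and 12.24 in transient cells and was not called (0.07 ± 0.21 SE, adjusted p = 0.839). Mx1 was not called either, at 9.37 and 7.71 in transient cells (-0.11 ± 0.71 SE, adjusted p = 0.927). Klf2 lay between the other groups, at 9.90 and 10.41 in transient cells, and continuous cells were higher (1.58 ± 0.19 SE, adjusted p = 0.000584). S1pr1 lay between them too, at 7.63 and 8.62 in transient cells (1.50 ± 0.31 SE, adjusted p = 0.00723).

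Other genes were high in continuous cells and low in transient cells. Il21 measured 3.65 and 4.85 in transient cells, and continuous cells were higher (6.26 ± 1.53 SE, adjusted p = 0.0153). Gzmk measured 6.65 and 6.82 in transient cells (4.78 ± 0.17 SE, adjusted p = 1.25e-05), and Gzmb measured 6.79 and 7.31 there (5.71 ± 1.13 SE, adjusted p = 0.00587). Tbx21, Lag3 and Il10, of which only Il10 differed from stimulated cells, were higher in continuous than in transient cells by 2.90 ± 0.23 (SE), 2.12 ± 0.30 (SE) and 3.07 ± 0.45 (SE). Emp1 and Cxcr6 were higher by 4.63 ± 0.48 (SE) and 3.06 ± 0.40 (SE). Of the 57 cell cycle genes 54 were higher, none lower and 3 not called, with a median of 2.41, against -0.0578 over all genes. Ccna2, a cyclin of DNA replication and mitosis, read 11.76, 11.11 and 11.83 in continuous cells, 7.17 and 6.96 in transient cells and 10.64, 10.47 and 10.36 in stimulated cells. The genes Psmb7, Lrr1 and Stil were higher by 4.95 ± 0.20 (SE), 4.84 ± 0.23 (SE) and 4.39 ± 0.34 (SE). Psmb7 stood far above the median of the 32 proteasome genes in this comparison, 0.49. Whether these differences depend on the beta-actin difference, which was larger on the transient arrays, was not tested gene by gene. The transient arrays carried B cell genes: Ms4a1, the antigen CD20, measured 5.13, 5.03 and 5.13 in continuous cells and 12.85 and 11.13 in transient cells (-6.89 ± 0.41 SE), and Jchain, of antibody-secreting cells, 8.73, 4.44 and 4.58 in continuous cells and 12.34 and 13.79 in transient cells (-7.14 ± 1.16 SE). Summed B cell markers were 2950 to 4750 in continuous cells and 33600 to 39400 in transient cells, summed plasma cell markers 1920 to 2570 in continuous cells and 6480 to 16100 in transient cells, and summed myeloid markers 9050 to 20000 in continuous cells and 11600 to 44100 in transient cells. The part of these markers in the calls of this comparison was not tested. With the beta-actin covariate 69 genes were higher and 4585 lower.

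**Figure D3:**
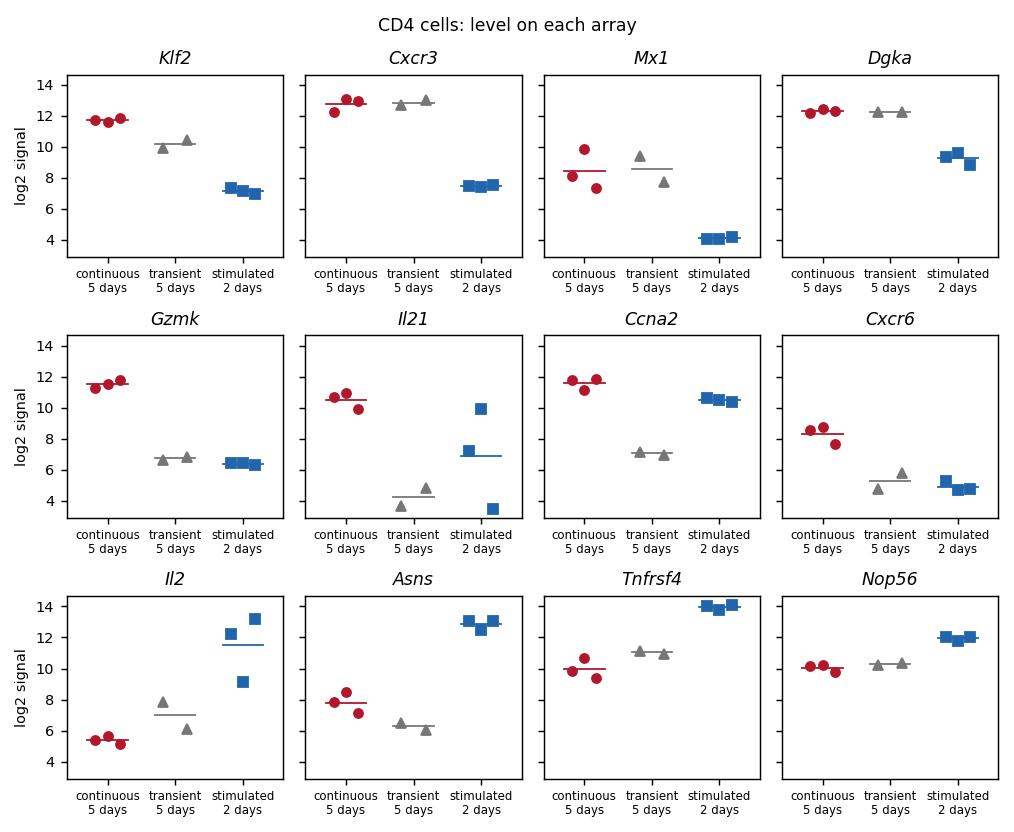
Log2 signal (vertical axes) on each array of CD4 continuous 5 days (circles, 3 arrays), CD4 transient 5 days (triangles, 2 arrays) and CD4 stimulated 2 days (squares, 3 arrays) for 12 named genes, with group means as lines. In the top row the transient cells resemble continuous cells more than stimulated ones, in the middle row the mean of continuous cells lies highest, and in the bottom row that of stimulated cells.

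Amino acid genes lay below their stimulated level on both kinds of day 5 arrays in the examples measured here. Cth measured 3.67 and 4.02 in transient cells and was not called between continuous and transient cells (-0.02 ± 0.31 SE, adjusted p = 0.974). Trib3 measured 7.32 and 7.77 in transient cells and was not called either (-0.37 ± 0.19 SE, adjusted p = 0.177). Asns was 7.82, 8.48 and 7.11 in continuous cells and 6.49 and 6.07 in transient cells, and higher in continuous cells (1.53 ± 0.37 SE, adjusted p = 0.0148). Of the 35 genes of that list 13 were higher and 2 lower in continuous than in transient cells, and of the 36 ribosome biogenesis genes 14 were higher and 1 lower. Il2 was 7.87 and 6.08 in transient cells and not called against continuous cells (adjusted p = 0.303). Ccr7 was 10.53 and 10.44 in transient cells, so that continuous cells were lower than both other groups (-1.76 ± 0.23 SE, adjusted p = 0.000923).

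In CD8 cells 4437 genes (35.8%) were called for the same step, which served to ask where the CD4 difference was unlike that of the other lineage. No array is shared between the 2 differences, but lineage, receptor and antigen change together between them. In the fit of 12 arrays the difference of continuous minus stimulated was unlike between CD8 and CD4 cells in 791 genes (6.38%), with 521 (4.20%) higher and 270 (2.18%) lower as CD8 minus CD4. That count was 296 without CD4 stimulated replicate 1, and lay between 365 and 487 without any 1 of 6 other arrays: CD4 stimulated replicate 3, CD4 continuous replicate 1, CD8 stimulated replicates 2 and 3, and CD8 continuous replicates 1 and 2. It was 3 in the fit of all 28 arrays. CD8 continuous replicate 3 stood apart by genes of B and antibody-secreting cells: in order of replicate the CD8 continuous arrays read 4.96, 5.58 and 10.94 for Jchain and 5.07, 4.74 and 7.46 for Ms4a1. Their summed B cell markers were 2790 to 11300, against 2520 to 2950 on the CD8 stimulated arrays. Without CD8 continuous replicate 3 the count was 979, of which 681 were among the 791, and of the 24 genes of this comparison named here Adh4 alone lost its call. Metrnl, a secreted protein, showed the largest such difference. It measured 9.29, 8.39 and 8.68 in CD4 continuous and 5.82, 6.44 and 5.14 in CD4 stimulated cells, but 5.82, 5.82 and 5.34 in CD8 continuous and 10.07, 8.56 and 9.14 in CD8 stimulated cells, so that the steps ran in opposite directions (CD8 minus CD4 -6.58 ± 0.57 SE, adjusted p = 0.000575).

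Several genes rose in CD4 cells and were not called in CD8 cells. Il10 measured 3.48, 4.18 and 3.47 in CD8 continuous and 3.64, 3.73 and 3.38 in CD8 stimulated cells (CD8 minus CD4 -2.63 ± 0.53 SE, adjusted p = 0.0185). Tgfb3, a transforming growth factor, measured 8.52, 7.87 and 8.53 in CD4 continuous and 5.02, 5.55 and 4.68 in CD4 stimulated cells, against 4.25, 4.23 and 4.24 in CD8 continuous and 4.71, 4.67 and 4.48 in CD8 stimulated cells (-3.60 ± 0.31 SE). Serpinb1a, an inhibitor of neutrophil proteases, gave -2.91 ± 0.52 (SE), and Ttc39c gave -3.51 ± 0.83 (SE), its call in CD4 cells being lost without stimulated replicate 1 or 3 or continuous replicate 2 or 3. Ankrd33b fell in both lineages and further in CD8 cells (CD8 minus CD4 -3.19 ± 0.18 SE). In continuous cells it was low in both, at 4.261, 4.219 and 4.421 in CD4 and 3.911, 4.121 and 4.419 in CD8 cells. The lineages differed mainly in stimulated cells, at 5.78, 5.686 and 5.858 in CD4 and 8.93, 8.821 and 8.705 in CD8 cells. Pkib, an inhibitor of protein kinase A, was not called in CD4 cells and fell in CD8 cells (CD8 minus CD4 -4.10 ± 0.59 SE). It was low already in CD4 stimulated cells (3.92, 4.268 and 4.06), against 8.223, 7.452 and 8.146 in CD8 stimulated cells. Il18r1, S100a4, S1pr1 and Itga4 rose in both lineages and by less in CD8 cells, with CD8 minus CD4 values of -2.60 ± 0.61 (SE), -2.06 ± 0.35 (SE), -1.51 ± 0.30 (SE) and -1.36 ± 0.36 (SE). Without CD8 continuous replicate 3, in which Il18r1, S100a4 and Itga4 were lowest of their group, these values were -1.93, -1.78, -1.52 and -1.0 (adjusted p = 0.0016, 0.00655, 0.0247 and 0.018). Klf2 rose in both and by more in CD8 cells (CD8 minus CD4 1.09 ± 0.25 SE). Cd8a rose in CD8 cells and was not called in CD4 cells (2.23 ± 0.39 SE). Each of Il18r1, Itga4, Klf2 and Ttc39c lost the call of this difference without any 1 of 6 or more of the 12 arrays. Eomes, a factor of CD8 memory cells read in this fit by another probe set than above, gave 2.22 ± 0.43 (SE).

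Over all genes the CD8 minus CD4 difference was called upward in 4.20% and downward in 2.18%. The respiratory chain (3 of 50), proteasome (3 of 32), sterol (1 of 24) and ribosomal protein (1 of 33) lists had upward calls and none downward. So did the receptor complex and kinases (2 of 18), receptor signal reporters (1 of 20) and inhibitory receptors (1 of 15). Cytotoxic granule genes had 2 upward calls and 1 downward among 17. The largest shares of the functional lists were called upward in 3 further lists. Of the 36 ribosome biogenesis genes, 19 had a higher CD8 minus CD4 value at the threshold and none a lower one, with a median of 1.13, against 0.017 over all genes. Of 21 glycolysis genes 6 were higher and none lower (15 were not called), with a median of 0.638, and of 35 amino acid and one-carbon genes 10 were higher and 2 lower (23 were not called), with a median of 0.661. Asns was 7.82, 8.48 and 7.11 in CD4 continuous and 13.03, 12.50 and 13.09 in CD4 stimulated cells, and 10.03, 10.11 and 9.16 in CD8 continuous and 12.70, 12.71 and 12.32 in CD8 stimulated cells (CD8 minus CD4 2.26 ± 0.48 SE, adjusted p = 0.0223). That call was lost without any 1 of 5 arrays (adjusted p 0.0538 to 0.0655). Shmt1, which transfers one-carbon units, gave 2.59 ± 0.52 (SE). Shmt1 fell in CD4 cells, but the CD8 continuous arrays (10.6, 10.92 and 10.61) lay above the CD8 stimulated arrays (9.985, 10.33 and 9.661). Adh1 and Adh4, alcohol dehydrogenases, gave 2.82 ± 0.38 (SE) and 1.30 ± 0.34 (SE), the call of Adh4 being lost without any 1 of 11 arrays. Ppic, a cyclophilin, measured 5.24, 5.30 and 5.69 in CD4 continuous and 7.73, 7.48 and 8.64 in CD4 stimulated cells, against 8.13, 7.97 and 8.62 in CD8 continuous and 8.39, 8.30 and 8.17 in CD8 stimulated cells (2.49 ± 0.38 SE). Smyd2, a lysine methyltransferase, Top1mt, a mitochondrial topoisomerase, and Thop1, a peptidase, gave 2.66 ± 0.28 (SE), 2.63 ± 0.40 (SE) and 2.41 ± 0.28 (SE). Smyd2 and Top1mt were lower on CD4 continuous than on CD4 stimulated arrays, but higher on CD8 continuous than on CD8 stimulated arrays. In CD8 cells Smyd2 read 9.682, 9.885 and 9.845 against 9.522, 9.62 and 9.449, and Top1mt 8.481, 8.527 and 8.598 against 8.036, 7.923 and 7.759. The gene 2010204K13Rik gave 2.51 ± 0.26 (SE), and Chst2, a sulfotransferase that rose in CD8 cells and was not called in CD4 cells, 2.57 ± 0.40 (SE). Beta-actin differences were 0.312 to 0.557 on CD8 continuous and 1.38 to 1.69 on CD8 stimulated arrays, and with that covariate 7 genes were called, all lower.

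**Figure D4:**
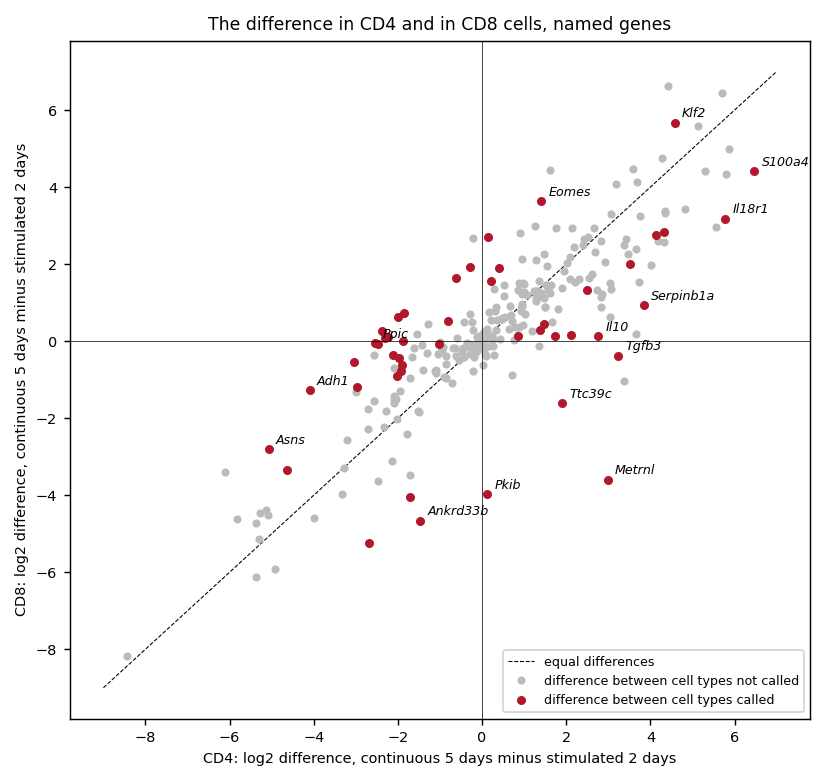
Log2 difference of continuous 5 days minus stimulated 2 days in CD4 cells (horizontal axis) and in CD8 cells (vertical axis) for the 268 named genes, from the fit of 12 arrays. Red points had a CD8 minus CD4 difference at an adjusted p below 0.05, grey points did not, and the dashed line marks equal differences. Metrnl lies in the quadrant of opposite signs, and Asns lies above the line among the falls.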

How the data were processed

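RNA of each preparation was hybridised to 1 Affymetrix mouse array. The authors deposited log2 values computed with RMA, per the submitters' processing notes; the version is not given in the sources used here, and RMA forces arrays toward a common distribution. No further normalization was applied. Of 22690 probe sets, 64 controls, 691 with several gene symbols and 1555 with none were left out, and each of 12393 genes was represented by its probe set of highest mean signal. Depth does not apply to arrays; their small number limits the precision.

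Differences were fitted with limma 3.58.1 in R 4.3.3 (lmFit and eBayes, Benjamini-Hochberg adjustment over all 12393 genes, calls at an adjusted p below 0.05). Arrays were grouped by their titles. The genes named were the 12 largest changes in each direction, up to 5 called members of each list, a fixed panel, and the 8 largest in each direction of the other comparisons; the remaining names were chosen after their values were seen. The members and lists were chosen with earlier results of these data known. The scripts were tested on simulated data. Alternatives covered probe set choice, low signals, moderation, scaling, array weights, the arrays fitted, a beta-actin covariate, a replicate block, thresholds and each array left out.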

Additional observations from a re-analysis of the deposited data

Results flagged for a closer look

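These genes had a difference of continuous minus stimulated that was unlike between CD8 and CD4 cells by the direct test in the fit of 12 arrays (limma, adjusted p below 0.05, 791 of 12393 genes); each is given as CD8 minus CD4 on the log2 scale with its standard error. The value was higher in CD8 cells for Adh1 (2.82 ± 0.38 SE), Smyd2 (2.66 ± 0.28 SE), Top1mt (2.63 ± 0.40 SE), Shmt1 (2.59 ± 0.52 SE), Chst2 (2.57 ± 0.40 SE) and 2010204K13Rik (2.51 ± 0.26 SE). It was also higher for Ppic (2.49 ± 0.38 SE), Thop1 (2.41 ± 0.28 SE), Asns (2.26 ± 0.48 SE), Cd8a (2.23 ± 0.39 SE), Eomes (2.22 ± 0.43 SE), Adh4 (1.30 ± 0.34 SE) and Klf2 (1.09 ± 0.25 SE). It was lower in CD8 cells for Itga4 (-1.36 ± 0.36 SE), S1pr1 (-1.51 ± 0.30 SE), S100a4 (-2.06 ± 0.35 SE), Il18r1 (-2.60 ± 0.61 SE), Il10 (-2.63 ± 0.53 SE) and Serpinb1a (-2.91 ± 0.52 SE). It was lowest for Ankrd33b (-3.19 ± 0.18 SE), Ttc39c (-3.51 ± 0.83 SE), Tgfb3 (-3.60 ± 0.31 SE), Pkib (-4.10 ± 0.59 SE) and Metrnl (-6.58 ± 0.57 SE). The smallest adjusted p was that of Ankrd33b, 2.89e-05, and the largest that of Itga4, 0.0472. With 1 of the 12 arrays left out in turn, the call was lost in 11 fits for Adh4, 9 for Itga4, 7 each for Il18r1 and Ttc39c, 6 for Klf2 and 5 for Asns, in 2 for Shmt1 (without CD4 stimulated replicate 1 or CD8 stimulated replicate 3) and in 1 for Il10 (without CD4 stimulated replicate 1), with adjusted p values from 0.0503 to 0.118. The other 16 genes were called in all 12 of these fits, and no difference changed its sign. Lineage, transgenic receptor and antigen differ together between the cell types.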

How the results depend on the processing

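For continuous minus stimulated CD4 cells, the 5006 called genes became 8173 over all probe sets, 1086 in the fit of all 28 arrays, 3346 with the beta-actin covariate, 3168 at an adjusted p below 0.01, 2050 with a change of at least 2-fold as well, and 3864 to 4648 with 1 array left out. For the CD8 minus CD4 difference, the 791 became 1815 with array weights, 3 with all 28 arrays, 394 with all arrays except the third unstimulated 2 days arrays, 7 with the beta-actin covariate, 168 at an adjusted p below 0.01, 429 with a 2-fold change and 296 to 1157 with 1 array left out. For continuous minus transient, the 3940 became 6449 over all probe sets, 622 with all 28 arrays, 2390 at an adjusted p below 0.01, 1823 with a 2-fold change and 3006 to 3881 with 1 array left out; with the beta-actin covariate they were 4654, of which 1.48% were higher in place of 53.2%.

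Same-numbered CD4 replicates did not deviate together (correlations of -0.066, -0.121 and -0.059 between continuous and stimulated arrays). Among the CD8 arrays these correlations were 0.06, 0.063 and 0.177, against -0.177 to 0.122 between differently numbered ones. Whether the numbers pair the replicates cannot be told from these values, and the main fits used no pairing. With the replicate block 4180 genes were called for continuous minus stimulated, 3119 for continuous minus transient and 607 for the CD8 minus CD4 difference.

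Of the 268 named genes 181 were called, 98 of them under every alternative that gave the gene a value (the filter on low signals left some genes out, and all probe sets were counted without single genes), and 21 lost the call in at least 1 fit without an array. Quantile normalization and median centring changed the call of none of the 268. The direction turned with the beta-actin covariate for H2ax (-0.575), Ikzf2 (-0.300), Macroh2a1 (-0.491), Psmc4 (-0.602) and Uqcrc2 (-0.017), and without continuous replicate 1 for Ly86 (-0.683, adjusted p 0.0453; up to 0.875 with another array left out); the cause was not tested. The covariate is tied to the groups, so its fits share what they remove with the comparison itself.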
